A study of Homo sapiens with 12 samples.

Results

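The genes that encode the proteasome, its activators and its assembly factors were followed across 12 RNA-seq libraries of MCF10-A, a human breast epithelial line that is not tumorigenic. Members were the protein-coding genes whose symbol is PSM, a letter from A to G and a number, with at least 10 counts in at least 2 libraries. Of 50 such genes 48 qualified, out of 58233 genes in the count table, and all 48 also passed the filter on low counts before testing, among 15749 genes. PSMA8 and PSMB11, forms known from testis and thymus, had 0 or 1 count in every library and did not qualify. Just inside the rule lay PSMB10 with 26 to 66 counts, PSMA2 with 33 to 81 counts and PSMB9 with 36 to 119 counts. A further 51 antisense, divergent and pseudogene symbols were left out. Of the 48 genes, 46 encode proteasome subunits, regulators or assembly factors. The other 2, PSMC3IP (a recombination cofactor) and PSME3IP1, were matched by symbol only and are described apart.

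The cells came as 3 derivatives labelled Vector, B4-4 and Addback, each labelled NA or EDTA for treatment (EDTA binds calcium and magnesium ions), with 2 libraries per combination. All 12 libraries were from cells lifted with trypsin and held without serum for 3 hours on plates whose poly-HEMA coating prevents attachment, so no attached cells serve as a reference. The labels also list 5% horse serum for all 12 libraries, at a stage not given here. The series concerns the integrin of the alpha 6 and beta 4 chains. The meaning of NA, the dose of EDTA, how B4-4 and Addback were made and whether each is 1 clone stand in none of the sources used here. ITGB4, which encodes the beta 4 chain, ranged from 1678 to 1850 CPM in the Vector libraries, from 182 to 395 CPM in B4-4 and from 1060 to 1525 CPM in Addback. CPM (counts per 1e+06) are relative to the library size after TMM scaling.

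The proteasome degrades proteins tagged with ubiquitin. Its 20S core is a barrel of alpha and beta rings whose beta rings hold the catalytic sites, and the 19S particle caps the core, binds ubiquitin, and unfolds substrates with a ring of ATPases. Other caps can take the place of the 19S particle: PSME1 and PSME2 form the interferon-induced activator PA28 alpha-beta, PSME3 forms the nuclear activator PA28 gamma, and PSME4 is PA200. Dedicated chaperones assemble core and cap, and the transcription factor NFE2L1 is known for raising many subunit genes together when proteasome activity falls.

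Library totals ran from 15685376 to 22156173 counts, and the 46 proteasome genes took between 0.467% and 0.585% of them. The labels do not say that replicates were separate cultures, so p-values measure the spread between these libraries, which may be technical. The B4-4 NA pair stood apart: 40 of the 46 genes were higher in replicate 2, and the median difference of replicate 1 from replicate 2 was −0.22 on the log2 scale. In the other groups that median lay between −0.08 and 0.00. The spread was not confined to proteasome genes. Over all tested genes the median absolute difference within a pair was also largest in B4-4 NA, at 0.27. It was 0.21 in Addback EDTA, the next largest, and 0.08 in Vector NA, the smallest. All 10 listed markers of mammary epithelium passed the filter, with a summed level between 10036 and 15907 CPM. The list holds KRT5, KRT14, KRT17, TP63 and LAMB3, the broader epithelial genes EPCAM, CDH1, KRT8 and KRT18, and ITGB4. The sum thus includes ITGB4, whose level differed between the derivatives. Markers of other cell types had lower sums. The summed level of 7 fibroblast markers was 14.1 to 65.5 CPM, of 6 leukocyte markers 8.12 to 55.8 CPM and of 4 endothelial markers 3.35 to 34.3 CPM. Under 1 CPM in every library were 3, 4 and 3 of these markers, with CD3E and CDH5 at 0. The sums thus rest mainly on the remaining markers. The 1 endothelial marker that passed the filter was called lower with EDTA in B4-4 (log2 fold change −2.31). These sums were not even over the libraries. The fibroblast sum was 16.1 and 15.2 CPM in Vector NA against 45.9 and 47.1 CPM in Addback NA. The leukocyte sum was 55.8 and 48.2 CPM in Addback NA against 35.8 and 8.70 CPM in Addback EDTA 1 and 2. In those 2 EDTA libraries the endothelial sum was 34.3 and 11.8 CPM. The part of these marker genes in the results was not tested. In bulk RNA, fewer cells of a type and less RNA per cell cannot be told apart. The description code of Addback EDTA 2 carries another suffix than those of the 11 other libraries. Results without that library are given for some of the genes where they differ.

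Levels of single genes were compared as CPM per kilobase of exon, averaged over the 12 libraries. The highest were the core genes PSMB4 at 119, PSMA7 at 117 and PSMB3 at 96.5 CPM per kilobase. Among 19S genes the highest were PSMD2, a scaffold of the base, at 84.3 and the ATPase gene PSMC3 at 68.6. The rings were not even: the alpha subunit genes PSMA2 and PSMA6 stood at 0.598 and 0.741 CPM per kilobase, and PSMA1 at 5.79. The products of these genes are present in equal number in each ring. PSMA2 shares 34.6% of its exon length with other annotated genes, PSMA1 24.7% and PSMA6 14.1%. Of 44 annotated pseudogenes of proteasome genes, 42 had fewer than 10 counts in every library. The part of shared sequence in the low counts of PSMA1, PSMA2 and PSMA6 was not tested.

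**Figure D1:**
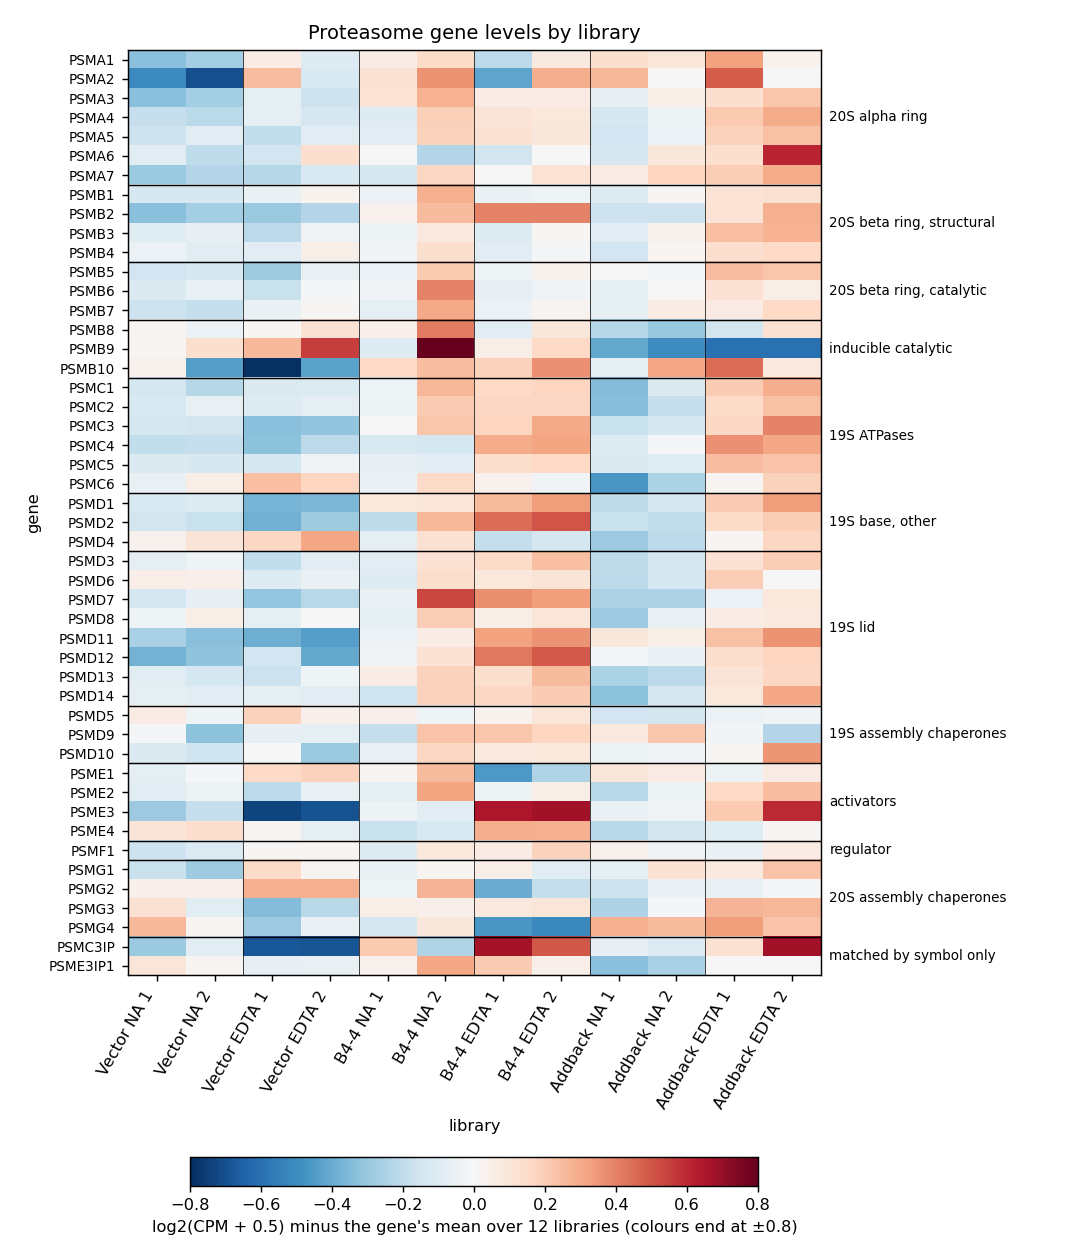
Level of each of the 48 genes in each of the 12 libraries, as log2(CPM + 0.5) minus the mean of that gene over all libraries; genes are rows grouped by role, libraries are columns, and colours end at 0.8 in either direction. The columns of B4-4 NA 2, both B4-4 EDTA and both Addback EDTA libraries are mostly red, and PSME3 has its lowest values in Vector EDTA and its highest in B4-4 EDTA.

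Promoter windows from RefSeq (GRCh38.p14, 250 bases before to 50 after each start) were available for 42 of the 48 genes, in 53 windows. They were searched on both strands for TGACNNNGC, the core of the antioxidant response element bound by NFE2L1 and NFE2L2. It occurred in 15 of the 53 windows (28.3%) and in 4687 of all 35116 windows (13.3%). A match is a description of the letters in a window, not a bound site. Matches are shown for the 5 genes that passed the test in at least one comparison and whose match lies outside annotated exons. Each is given with 20 bases on each side, 5′ to 3′ on the strand of the gene, and with the match in capitals. A match that lies on the other strand reads as the reverse complement of the searched pattern. The windows are chr17:67366714-67366762 (minus strand) for PSMD12, chr2:53970999-53971047 (minus strand) for PSME4, chr14:24136088-24136136 (plus strand) for PSME1, chr6:32854024-32854072 (plus strand) for PSMB9 and chr17:38752617-38752665 (plus strand) for PSMB3. The match of PSMB9 starts 148 bases before its RefSeq start and lies inside the longer gene of the GENCODE annotation.
PSMD12: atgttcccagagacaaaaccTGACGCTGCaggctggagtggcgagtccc
PSME4: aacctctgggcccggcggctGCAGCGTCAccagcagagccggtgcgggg
PSME1: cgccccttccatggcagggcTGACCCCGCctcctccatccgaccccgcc
PSMB9: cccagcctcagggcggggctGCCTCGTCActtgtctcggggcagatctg
PSMB3: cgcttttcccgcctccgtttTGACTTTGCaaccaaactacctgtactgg
These 5 genes did not follow a single course over the libraries. The values of PSMD12, PSME4, PSME1 and PSMB9 are given below. PSMB3, a beta ring gene, passed in 1 comparison, as higher in Addback than in Vector under EDTA (log2 fold change 0.38, SE 0.10, adjusted p = 0.0126; 0.11 without Vector EDTA 1 and 0.0591 without Addback EDTA 2).

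Summed over the 46 proteasome genes, mRNA was highest in the EDTA groups of B4-4 and Addback when taken as means of 2 libraries. The sum was 4749 and 4794 CPM under NA against 4645 and 4794 under EDTA in Vector, 4977 and 5811 against 5793 and 6000 in B4-4, and 4712 and 4942 against 5665 and 6048 in Addback. The Addback EDTA libraries thus lay above both Addback NA libraries, and the Vector pairs overlapped. B4-4 NA 2 alone of the NA libraries reached the level of the B4-4 EDTA pair, and it lay above Addback EDTA 1. The 17 genes of the 19S particle summed, as means of 2 libraries, to 2212 CPM under NA against 2117 under EDTA in Vector, 2479 against 2848 in B4-4, and 2121 against 2714 in Addback. The 14 genes of the 20S core summed to 1525 CPM under NA against 1596 under EDTA in Vector, 1836 against 1795 in B4-4, and 1680 against 1964 in Addback.

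**Figure D2:**
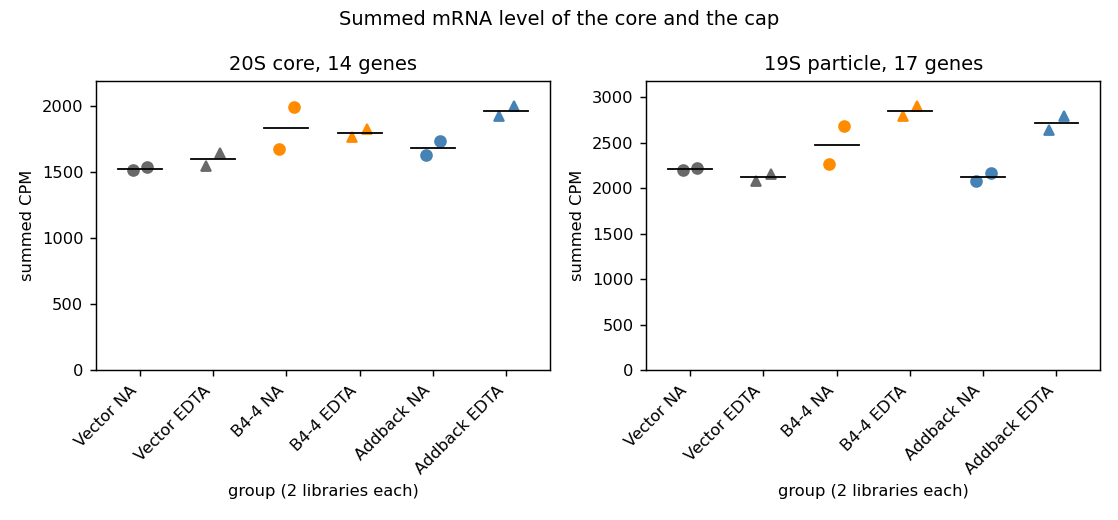
Summed CPM of the 14 genes of the 20S core (left) and the 17 genes of the 19S particle (right) in each library, from 0; NA is drawn as circles, EDTA as triangles, and each pair's mean as a black line. The 19S sums of Addback EDTA and B4-4 EDTA lie at 2637 CPM or more, and those of Vector at 2220 CPM or less; B4-4 NA 2 lies at 2687 CPM.

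EDTA was compared with NA within each derivative, which asks how chelation changed the detached cells. In Addback 14 of 48 genes rose and 0 fell, against 8.64% of all tested genes that rose and 8.29% that fell, and 45 of 48 fold changes were above 0, with a median of 0.26 on the log2 scale against 0.01 over all genes. In B4-4 6 genes rose and 3 fell, against 9.88% and 10.0% of all genes, with a median of 0.04. In Vector 0 genes rose and 1 fell, against 6.36% and 8.98%, with a median of 0.01, and 6 genes had an unadjusted p under 0.05. DESeq2 also called 0 genes higher in Vector and 0 lower in Addback. The share called in Addback was above the background, the share in B4-4 near it and the share in Vector below it.

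These counts rested on single libraries. The 14 calls in Addback became 0 without Addback NA 1, 5 without Addback NA 2, 2 without Addback EDTA 2, and 9 without either Vector NA library, while they became 23 when B4-4 NA 1 was left out and 25 when B4-4 NA 2 was. The 9 calls in B4-4 became 1 without B4-4 EDTA 1, 2 without B4-4 EDTA 2 and 16, with 6 higher and 10 lower, without B4-4 NA 1. In Vector the count became 0 without Vector NA 1, Vector NA 2 or Vector EDTA 1, 3 without B4-4 NA 1 or B4-4 NA 2, and 2 without Addback EDTA 2.

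**Figure D3:**
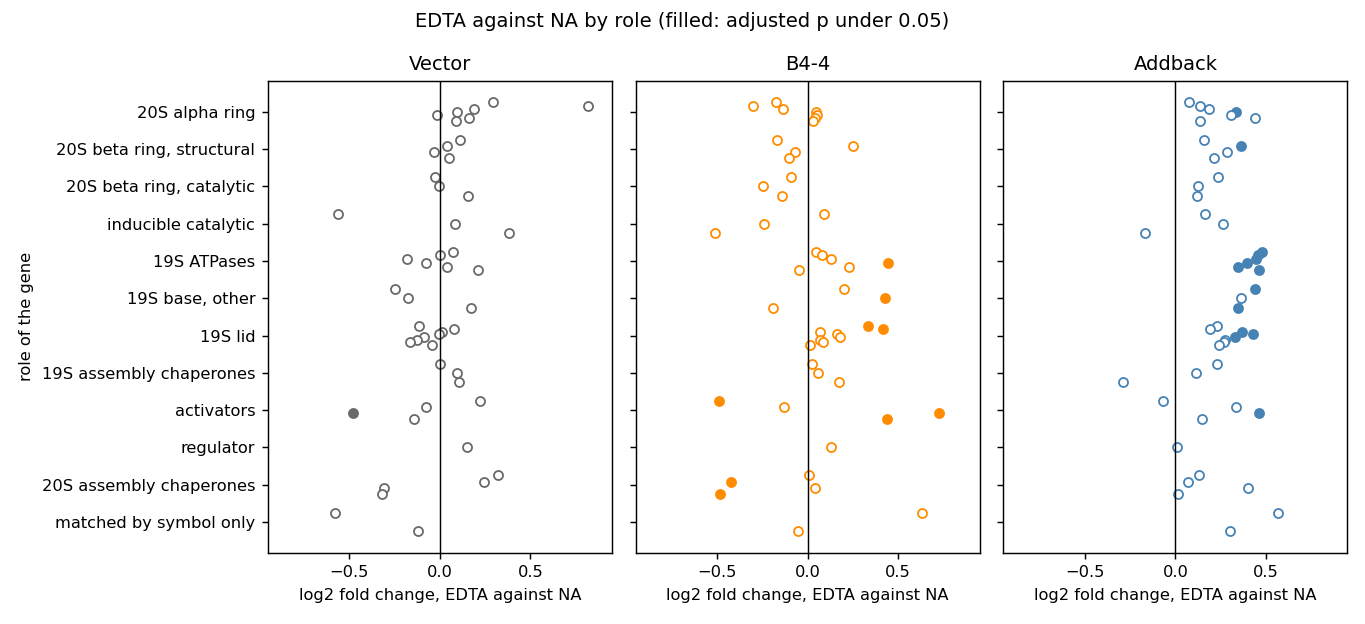
Log2 fold change of EDTA against NA for each of the 48 genes in Vector, B4-4 and Addback, with genes in rows by role; filled circles have an adjusted p under 0.05. In Addback all 17 genes of the 19S particle lie above 0 and 11 of them are filled; in Vector a single activator gene is filled, on the lower side.

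The 19S particle held most of the calls in Addback: 11 of its 17 genes rose with EDTA, among them all 6 ATPase genes. Its median log2 fold change was 0.36. Of these ATPase genes PSMC1 shares 75.8% of its exon length with the opposite strand, mainly with NRDE2 (14.7 to 21.9 CPM). PSMC5 shares 19.5% with the opposite strand, mainly with FTSJ3 (44.0 to 88.1 CPM). Over the 14 genes of the 20S core 2 rose, PSMA4 and PSMB2, with a median of 0.20. The calls of both ended without Addback EDTA 2, with log2 fold changes of 0.29 and 0.27. Those of the ATPase genes PSMC1, PSMC3 and PSMC5 ended too, with 0.43, 0.32 and 0.35. PSMD1, the largest subunit of the base, stood at 194 and 204 CPM in Addback NA and at 257 and 282 CPM in Addback EDTA. Its EDTA values lay above both NA values (log2 fold change 0.44, SE 0.09, adjusted p = 0.00562; 0.0859 without Addback NA 1). PSMC4, an ATPase gene, was 73.9 and 78.9 CPM in Addback NA and 102 and 98.5 CPM in Addback EDTA (0.40, SE 0.09, adjusted p = 0.0117; 0.134 without Addback NA 1). The ATPase genes PSMC2 and PSMC6 also rose, by 0.46 and 0.46 (adjusted p = 0.0117 and 0.0155). Their calls ended without Addback NA 1 (0.144 and 0.18) or Addback EDTA 2 (0.0724 and 0.109).

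PSMD14, the deubiquitinase of the lid, was 109 and 125 CPM in Addback NA and 146 and 170 CPM in Addback EDTA. Its groups did not overlap (0.43, SE 0.12, adjusted p = 0.0317), and the call ended in 7 of the 12 fits that left out a library, at 0.254 without Addback NA 1, 0.207 without Addback EDTA 2, 0.07 without Addback NA 2, and 0.0517 to 0.0539 without either library of Vector NA or B4-4 EDTA. In Vector, where it was 129 to 130 CPM in all 4 libraries, PSMD14 did not pass the test, nor in B4-4 (0.16, SE 0.12, adjusted p = 0.371). PSMD4, a ubiquitin receptor of the base, was 114 and 121 CPM in Addback NA and 141 and 157 CPM in Addback EDTA (0.35, SE 0.10, adjusted p = 0.0372). That call ended in the same 7 fits, at 0.24 without Addback NA 1, 0.205 without Addback EDTA 2, 0.113 without Addback NA 2 and 0.0682 to 0.0701 without either library of B4-4 EDTA or Vector NA. Both calls also ended with upper-quartile scaling factors (0.0505 for PSMD14 and 0.0729 for PSMD4).

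In B4-4, 4 of the 17 genes of the 19S particle rose with EDTA and 0 of the 14 core genes were called by edgeR, 1 of them having an unadjusted p under 0.05. PSMC4 was 72.9 and 72 CPM in B4-4 NA and 97.8 and 99.1 CPM in B4-4 EDTA (0.44, SE 0.09, adjusted p = 0.00635), and the call ended without B4-4 EDTA 1 (0.0709) or B4-4 EDTA 2 (0.0741). PSMD12, a lid subunit, was 115 and 128 CPM in B4-4 NA and 158 and 166 CPM in B4-4 EDTA (0.42, SE 0.10, adjusted p = 0.016; 0.0785 and 0.115 without B4-4 EDTA 1 and 2). Fitted without the other groups, these calls of PSMC4 and PSMD12 did not pass (0.0839 and 0.0988). The other 2 genes of the 19S particle that rose were PSMD11 and PSMD2, and the fold change of PSMD2 was 0.43, or 0.21 without B4-4 NA 1.

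Among the activators PSME3 was the member that moved most. PSME3 (ENSG00000131467, chromosome 17, 42824385 to 42843758, GRCh38) stood at 189 and 203 CPM under NA against 139 and 143 under EDTA in Vector, 225 and 217 against 363 and 370 in B4-4, and 223 and 227 against 267 and 351 in Addback. Within each derivative its NA and EDTA values did not overlap, with EDTA lower in Vector and higher in B4-4 and Addback, and the Addback EDTA pair was the widest. EDTA raised it in B4-4 (0.73, SE 0.11, adjusted p = 0.00161), a call kept in all 12 fits that left out a library. In Addback it rose by 0.46 (SE 0.11, adjusted p = 0.0176; 0.14, 0.0911 and 0.154 without Addback NA 1, Addback NA 2 and Addback EDTA 2; 0.0532 when Addback was fitted alone), and by 0.25 without Addback EDTA 2. In Vector it fell by 0.48 (SE 0.11, adjusted p = 0.0153; 0.0656 and 0.133 without the first and second Vector NA library, 0.105 without Vector EDTA 1).

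The difference of these EDTA effects was tested directly. PSME3 differed between B4-4 and Vector by 1.21 (SE 0.16, adjusted p = 0.000361) and between Addback and Vector by 0.94 (SE 0.16, adjusted p = 0.00154). Both calls were kept in all 12 fits that left out a library. BECN1, which lies on the opposite strand and shares 5.82% of the exon length of PSME3, ranged from 53.8 to 66.9 CPM over the 12 libraries.

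PSME4, the PA200 gene (ENSG00000068878, chromosome 2, 53864067 to 53970840), was 239 and 244 CPM under NA against 226 and 212 under EDTA in Vector, 197 and 204 against 273 and 272 in B4-4, and 191 and 201 against 208 and 225 in Addback. Its highest pair was B4-4 EDTA. It rose with EDTA in B4-4 (0.44, SE 0.09, adjusted p = 0.00533; 0.0585 and 0.0528 without B4-4 EDTA 1 and 2, and 0.0783 with B4-4 fitted alone). The EDTA effect in B4-4 exceeded that in Vector by 0.58 (SE 0.12, adjusted p = 0.00467), which held in all 12 fits that left out a library. Its fold changes with EDTA were −0.14 in Vector and 0.14 in Addback, neither of which passed (adjusted p = 0.297 and 0.275).

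PSME1 moved the other way (ENSG00000092010, chromosome 14, 24136158 to 24138967). It was 76 and 79.5 CPM under NA against 89.8 and 91.4 under EDTA in Vector, 81.0 and 95.9 against 58.1 and 67.8 in B4-4, and 85.7 and 83.9 against 77.9 and 83.9 in Addback. The B4-4 EDTA libraries were the 2 lowest of all. EDTA lowered it in B4-4 (−0.49, SE 0.11, adjusted p = 0.0103; 0.112 without B4-4 EDTA 1, and 0.0984 with B4-4 fitted alone). The EDTA effect in B4-4 lay below that in Vector by 0.71 (log2 difference −0.71, SE 0.16, adjusted p = 0.00578), kept in all 12 fits that left out a library. Its partner PSME2 ranged from 58.9 to 85.5 CPM and was not called in any of the 9 comparisons of groups, with its largest EDTA effect in Addback (0.33, SE 0.13, adjusted p = 0.0925).

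**Figure D4:**
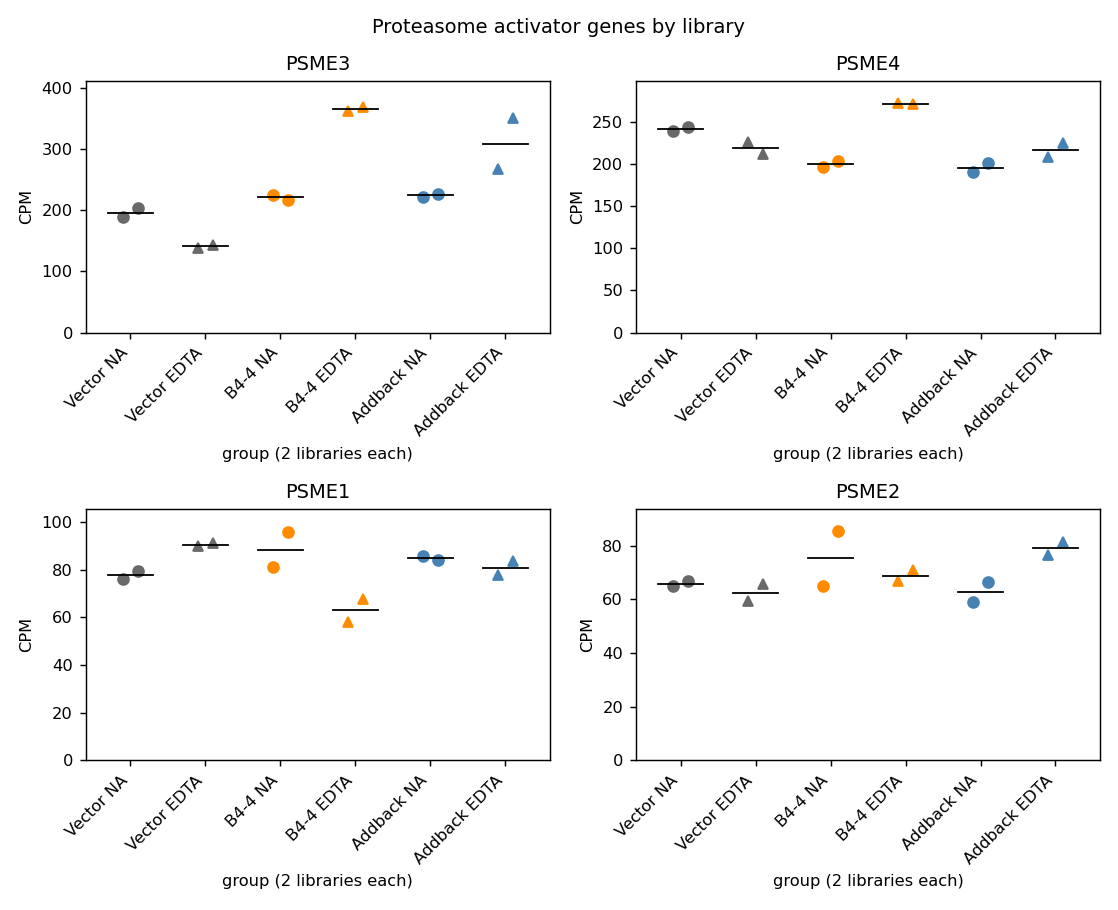
CPM of the activator genes PSME3, PSME4, PSME1 and PSME2 in each library, from 0; NA is drawn as circles, EDTA as triangles, and each pair's mean as a black line. B4-4 EDTA holds the highest values of PSME3 (363 and 370 CPM) and PSME4 (273 and 272 CPM) and the lowest of PSME1 (58.1 and 67.8 CPM).

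B4-4 was compared with Vector, which asks what differs in the derivative with the low ITGB4 level. Under EDTA 16 of 48 genes were higher and 3 lower in B4-4, against 22.9% and 20.4% of all genes, with a median of 0.19. The 3 lower genes were PSMG2, PSME1 and PSMD4. Upper-quartile scaling gave 12 higher and 5 lower genes. PSME3 was 1.38 higher in B4-4 than in Vector (SE 0.12, adjusted p = 4.85e-06).

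Of the 17 genes of the 19S particle 10 were higher and 1 was lower in B4-4 under EDTA, while 1 of the 14 core genes was higher. PSMD11, a lid subunit (ENSG00000108671, chromosome 17, 32444261 to 32483318), was 103 and 98.0 CPM under NA against 94.4 and 91.1 under EDTA in Vector, 119 and 129 against 155 and 159 in B4-4, and 132 and 128 against 145 and 159 in Addback. All 8 B4-4 and Addback libraries lay above the 4 Vector libraries. Under EDTA it was 0.76 higher in B4-4 than in Vector (SE 0.09, adjusted p = 5.55e-05). PSMD12 was 106 and 88.8 CPM in Vector EDTA against 158 and 166 CPM in B4-4 EDTA (0.73, SE 0.10, adjusted p = 0.000168). PSMD1 was 172 and 174 CPM in Vector EDTA against 266 and 281 CPM in B4-4 EDTA (0.66, SE 0.09, adjusted p = 0.000103). The calls of PSMD11, PSMD12 and PSMD1 were kept in all 12 fits that left out a library, as was that of PSME3.

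PSMD4 was lower in B4-4, at 157 and 173 CPM in Vector EDTA against 123 and 126 CPM in B4-4 EDTA (−0.40, SE 0.10, adjusted p = 0.00693; 0.0515 without Vector EDTA 2 and 0.0528 without B4-4 EDTA 1). PSME1 was 0.52 lower on the log2 scale (−0.52, SE 0.11, adjusted p = 0.00231), and this call held in all 12 fits that left out a library. PSME4 was higher by 0.31 (SE 0.09, adjusted p = 0.0113; 0.0607, 0.0699 and 0.0651 without Vector EDTA 2, B4-4 EDTA 1 and B4-4 EDTA 2).

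Without EDTA, in NA, 3 genes were higher in B4-4 than in Vector and 0 were lower, against 3.38% and 3.78% of all genes, while DESeq2 called 4 higher and 1 lower. Of the 48 fold changes 43 were above 0, with a median of 0.20 against 0.02 over all genes. The 2 B4-4 NA libraries differed in this: relative to the mean of each gene over the 12 libraries, the median of the 46 proteasome genes was −0.05 in B4-4 NA 1 and 0.18 in B4-4 NA 2, and −0.12 in both Vector NA libraries. The 3 genes were PSMA3, PSMB2 and PSMD12. PSMA3, an alpha ring gene, was 86.5 and 90.4 CPM in Vector NA and 118 and 133 CPM in B4-4 NA (0.50, SE 0.10, adjusted p = 0.0106; 0.122 and 0.087 without Vector NA 1 and 2; 0.17 when the 2 groups were fitted alone). PSMB2, a beta ring gene, was 156 and 163 CPM in Vector NA and 202 and 235 CPM in B4-4 NA (0.45, SE 0.10, adjusted p = 0.0193; 0.17 and 0.127 without Vector NA 1 and 2; 0.185 with the 2 groups alone). The count of 3 became 0 without Vector NA 1 or Vector NA 2 and 20 without B4-4 NA 1, the lower library of the pair.

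Addback was compared with B4-4, which asks what changes where ITGB4 is higher again. In NA 0 of 48 genes were higher and 10 lower in Addback, against 11.3% and 12.3% of all genes, and 0 were higher with DESeq2 as well, with a median of −0.15. Of these 10 genes 6 belong to the 19S particle. Among them PSMC6 was 85.8 and 99.2 CPM in B4-4 NA and 64.5 and 74.6 CPM in Addback NA (−0.41, SE 0.11, adjusted p = 0.0194; 0.0643 without B4-4 NA 2, 0.19 without Addback NA 1 and 0.117 with the 2 groups alone). PSMD13, a lid gene, fell by 0.36 (SE 0.09, adjusted p = 0.0177; 0.131 and 0.0758 without Addback NA 1 and 2; 0.103 with the 2 groups alone). The count of 10 became 0 without Addback NA 1, 2 without Addback NA 2, 2 without B4-4 NA 2, 6 without either Vector NA library and 24 without B4-4 NA 1. Fitted alone, the 2 groups gave 0 calls.

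Under EDTA 2 genes were higher and 1 lower in Addback than in B4-4, against 6.54% and 7.54% of all genes, with a median of 0.06. In this comparison 0 of the 17 genes of the 19S particle were called, and 4 had an unadjusted p under 0.05. PSMG4, a core assembly chaperone gene, was 11.2 and 10.9 CPM in B4-4 EDTA and 19.9 and 18.5 CPM in Addback EDTA (0.80, SE 0.15, adjusted p = 0.00439; 0.0526 without B4-4 EDTA 2). The other 2 calls, PSME1 higher (0.36) and PSME4 lower (−0.33), ended in 8 and 5 of the 12 fits that left out a library; the highest adjusted p was 0.315 for PSME1 and 0.157 for PSME4, both without B4-4 EDTA 1. PSME3 was not called (−0.24, SE 0.11, adjusted p = 0.173). The count of 3 became 0 without B4-4 EDTA 2, 1 without Vector NA 1, Vector NA 2, B4-4 EDTA 1 or Addback EDTA 1, 5 without either Vector EDTA library, 9 without B4-4 NA 2 and 10 without B4-4 NA 1.

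Addback was also set against Vector. Under EDTA 21 of 48 genes were higher and 1 lower, against 16.1% and 14.0% of all genes, with a median of 0.29. PSME3 was higher by 1.13 (SE 0.12, adjusted p = 3.73e-05), PSMD11 by 0.71 (SE 0.09, adjusted p = 0.000168), PSMD1 by 0.64 (SE 0.09, adjusted p = 0.00025) and PSMC4 by 0.61 (SE 0.09, adjusted p = 0.000467). These 4 calls were kept in all 12 fits that left out a library. Of the 14 core genes 7 were higher, and of the 17 genes of the 19S particle 9. The count of 22 became 9 without Vector EDTA 1 and 13 without Addback EDTA 2, and 14 when the 2 groups were fitted alone. These comparisons share the Vector EDTA libraries with those of B4-4, so the 2 sets of values are not independent.

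In NA 5 genes were higher and 4 lower in Addback than in Vector, against 17.9% and 18.1% of all genes. Upper-quartile scaling gave 7 higher and 3 lower genes. PSMD11 was higher by 0.37 (SE 0.09, adjusted p = 0.0078; 0.0742 without Vector NA 2 and 0.0667 without Addback NA 1). The count of 9 became 1 without Vector NA 1, 0 without Vector NA 2 or Addback NA 1, 2 without Addback NA 2, and 25, with 12 higher and 13 lower, when the 2 groups were fitted alone.

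The constitutive catalytic genes of the core were rarely called. In B4-4 against Vector in NA all 3 had fold changes above 0 (0.23 to 0.31), and 2 had an unadjusted p under 0.05. PSMB5, which encodes the chymotrypsin-like site, was 136 and 138 CPM under NA against 124 and 145 under EDTA in Vector, 146 and 175 against 147 and 154 in B4-4, and 151 and 150 against 179 and 176 in Addback. It was higher in Addback than in Vector under EDTA (0.40, SE 0.11, adjusted p = 0.0139; 0.124 without Vector EDTA 1), and was called in no other comparison. PSMB6, the caspase-like site, ranged from 75.1 to 113 CPM and PSMB7, the trypsin-like site, from 135 to 190 CPM. Both were highest in B4-4 NA 2 and were not called in any of the 9 comparisons of groups.

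The inducible catalytic genes, which replace the constitutive ones in the interferon-induced immunoproteasome, were low. Per kilobase of exon PSMB8 stood at 15.0% to 24.4% of PSMB5, PSMB9 at 1.07% to 3.16% of PSMB6 and PSMB10 at 0.785% to 2.25% of PSMB7 over the 12 libraries. PSMB9 (chromosome 6, 32844136 to 32859585) was 3.48 and 3.80 CPM under NA against 4.22 and 5.27 under EDTA in Vector, 3.16 and 7.54 against 3.57 and 3.89 in B4-4, and 2.46 and 2.28 against 2.11 and 2.1 in Addback. The 4 Addback libraries were the lowest of the 12. Against Vector under EDTA, Addback was lower by a log2 fold change of −1.17 (SE 0.34, adjusted p = 0.0222; 0.122 without Vector EDTA 2, 0.0719 and 0.0889 without Addback EDTA 1 and 2). Against B4-4 in NA the difference was −1.16 (SE 0.34, adjusted p = 0.0273; 0.291 without B4-4 NA 2, 0.124 and 0.134 without Addback NA 1 and 2, and 0.155 with the 2 groups alone). Without B4-4 NA 2 that difference was −0.42.

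PSMB8, the neighbour of PSMB9 on chromosome 6, was 51.5 and 49.1 CPM under NA against 51.5 and 55.2 under EDTA in Vector, 52.2 and 68.0 against 47.6 and 54.2 in B4-4, and 43.4 and 41.0 against 45.8 and 55.3 in Addback. Its lone call was the lower level in Addback than in B4-4 in NA (−0.51, SE 0.14, adjusted p = 0.0198; 0.101 without B4-4 NA 2, 0.0907 and 0.117 without Addback NA 1 and 2, and 0.103 with the 2 groups alone), and it was −0.31 without B4-4 NA 2. PSMB8 shares 20.6% of its exon length with its antisense gene, which was at 1.90 CPM or less. PSMB10 was 2.69 and 1.80 CPM under NA against 1.20 and 1.82 under EDTA in Vector, 2.99 and 3.19 against 3.05 and 3.51 in B4-4, and 2.46 and 3.36 against 3.74 and 2.79 in Addback. Its lowest libraries were Vector EDTA 1, Vector NA 2 and Vector EDTA 2. Under EDTA it was higher than in Vector by 1.11 in B4-4 (SE 0.31, adjusted p = 0.0114; 0.114 without Vector EDTA 1 and 0.0832 without B4-4 EDTA 2) and by 1.10 in Addback (SE 0.31, adjusted p = 0.0178; 0.153 without Vector EDTA 1, 0.0904 without Addback EDTA 1 and 0.0522 with the 2 groups alone). PSMB10 lies at 26 to 66 counts per library and shares 34.8% of its exon length with another annotated gene. The inducible genes thus differed from each other in the direction of their calls.

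**Figure D5:**
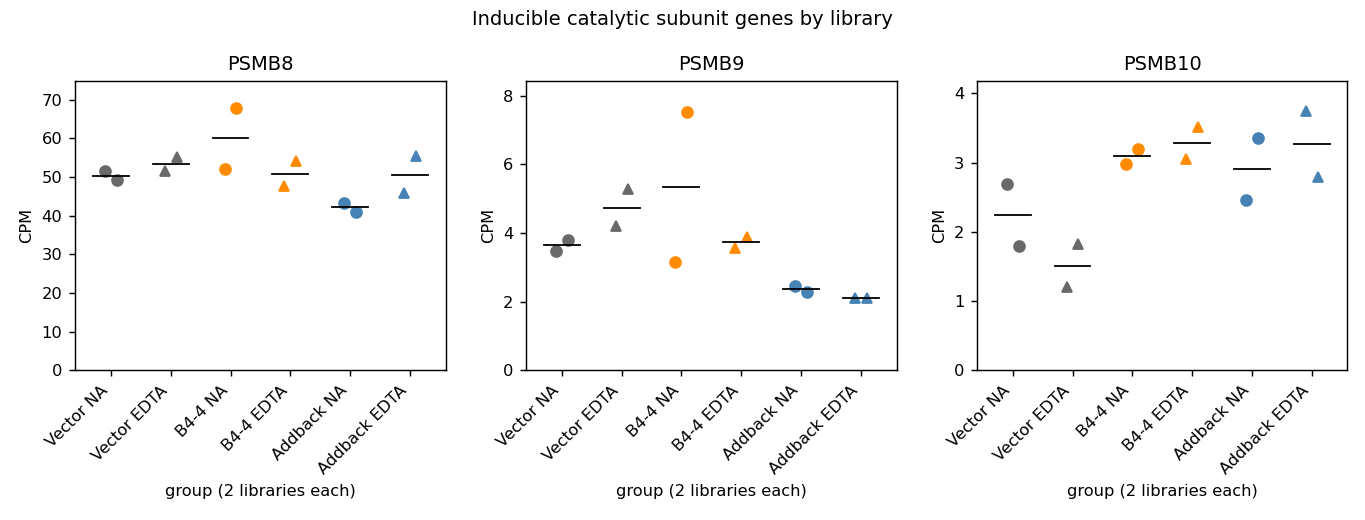
CPM of the inducible catalytic genes PSMB8, PSMB9 and PSMB10 in each library, from 0 on separate scales; NA is drawn as circles, EDTA as triangles, and each pair's mean as a black line. The Addback libraries are the lowest for PSMB9 (2.1 to 2.46 CPM), while the 3 lowest for PSMB10 are Vector EDTA 1 (1.20 CPM), Vector NA 2 (1.80 CPM) and Vector EDTA 2 (1.82 CPM).

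Of the regulator and the 7 assembly chaperone genes, 3 were called. PSMF1, an inhibitor of the core in the test tube, ranged from 126 to 160 CPM and was not called in any of the 9 comparisons of groups. The 3 chaperone genes of the 19S base, PSMD5, PSMD9 and PSMD10, were likewise not called. Of the chaperone genes of the core, PSMG1 ranged from 52.0 to 74.4 CPM and was not called. PSMG2 was 63.1 and 63.1 CPM in Vector EDTA and 39.2 and 45.4 CPM in B4-4 EDTA, and was lower in B4-4 than in Vector under EDTA (−0.58, SE 0.12, adjusted p = 0.00199), a call kept in all 12 fits that left out a library. With EDTA it fell in B4-4 by 0.42 (SE 0.12, adjusted p = 0.0281; 0.134 without B4-4 NA 2, 0.205 and 0.0567 without B4-4 EDTA 1 and 2, and 0.144 with B4-4 alone), and the fold change was −0.25 without B4-4 NA 2. PSMG3 was 22.1 and 19.1 CPM under NA against 15.9 and 17.4 under EDTA in Vector, 21.1 and 20.9 against 21.5 and 21.7 in B4-4, and 17.1 and 20.1 against 24.6 and 24.5 in Addback. Under EDTA it was higher than in Vector by 0.56 in Addback (SE 0.13, adjusted p = 0.00649; 0.0619 without Vector EDTA 1) and by 0.38 in B4-4 (SE 0.13, adjusted p = 0.032, kept in 6 of the 12 fits that left out a library). PSMG4, described above for Addback against B4-4, was 14.2 and 16.7 CPM in B4-4 NA and fell there with EDTA by 0.49 (SE 0.15, adjusted p = 0.0397), a call kept in 5 of those 12 fits. It was higher in Addback than in Vector under EDTA by 0.46 (SE 0.15, adjusted p = 0.0314), also kept in 5 of them.

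Differences of EDTA effects over all 48 genes were 7 higher and 2 lower for B4-4 minus Vector, against 14.4% and 12.6% of all genes, and 9 higher and 0 lower for Addback minus Vector, against 13.4% and 10.8%. Upper-quartile scaling gave 5 higher and 4 lower genes for B4-4 minus Vector, and DESeq2 gave 0 lower genes for Addback minus Vector. The 17 genes of the 19S particle gave 4 of the 7 and 6 of the 9, and the 14 core genes gave 0 in both, where 3 and 2 core genes had an unadjusted p under 0.05. The EDTA effect on PSMD1 was larger in Addback than in Vector by 0.69 (SE 0.12, adjusted p = 0.00181), and this call held in all 12 fits that left out a library. PSMC3, an ATPase gene, differed by 0.63 between Addback and Vector (SE 0.15, adjusted p = 0.0109; 0.052 without Addback NA 1). It was 140 and 139 CPM in Vector NA, 122 and 124 in Vector EDTA, 136 and 140 in Addback NA, and 173 and 203 in Addback EDTA. For B4-4 minus Vector the count of 9 became 4 without Vector NA 1, Vector NA 2 or B4-4 EDTA 1, 5 without B4-4 EDTA 2 and 16 without B4-4 NA 1. For Addback minus Vector the count of 9 became 2 without Addback NA 1, 3 without Vector NA 1 or Vector EDTA 1, 4 without Vector NA 2, 5 without Addback NA 2, B4-4 EDTA 1 or B4-4 EDTA 2, and 20 or 21 without the first or second B4-4 NA library.

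Over the 9 comparisons of groups 34 of the 48 genes were called at least once, and PSMB2, PSMD12 and PSME3 in 5 each. The share of all tested genes called at least once over these comparisons was not computed. The 34 are therefore not set against a background. The 14 never called were PSMA2, PSMA6, PSMB1, PSMB4, PSMB6, PSMB7, PSMD5, PSMD6, PSMD8, PSMD9, PSMD10, PSME2, PSMF1 and PSMG1. Of the genes matched by symbol only, PSMC3IP was 2.50 and 2.48 CPM in Vector EDTA, 7.14 and 6.28 in B4-4 EDTA and 4.74 and 7.17 in Addback EDTA. It was higher than in Vector under EDTA by 1.43 in B4-4 (SE 0.25, adjusted p = 0.000756) and by 1.25 in Addback (SE 0.25, adjusted p = 0.00315), both kept in all 12 fits that left out a library. It shares 29.9% of its exon length with MLX on the other strand, which was at 43.1 to 67.9 CPM. PSME3IP1 was lower in Addback than in B4-4 in NA (−0.48, SE 0.11, adjusted p = 0.00826; 0.0844 without Addback NA 1 and 0.0851 with the 2 groups alone).

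Other genes of the pathway were followed in lists. NFE2L1, the factor named above, was 216 to 318 CPM and was not called in any of the 11 contrasts. Its relative NFE2L2, which drives the response to oxidants, was 178 and 181 CPM under NA against 322 and 275 under EDTA in Vector, 195 and 233 against 118 and 119 in B4-4, and 212 and 234 against 179 and 153 in Addback. NFE2L2 rose with EDTA in Vector (0.74, SE 0.12, adjusted p = 0.00169) and fell in B4-4 (−0.85, SE 0.12, adjusted p = 0.000832), opposite to PSME3 in both derivatives. These NFE2L2 calls stayed under an adjusted p of 0.05 in all 12 fits that left out a library. Over a list of 13 genes of the NFE2L1 route and its relatives, which holds NFE2L2, NFE2L3, KEAP1 and the small MAF genes too, 1 rose and 1 fell with EDTA in Vector, against 6.36% and 8.98% of all genes. In B4-4 4 rose and 1 fell, against 9.88% and 10.0%, and in Addback 2 rose and 4 fell, against 8.64% and 8.29%. The Vector rise was NFE2L2 and the fall MAFK. In Addback VCP and UFD1 rose, and NFE2L2, NFE2L3, MAFF and MAFG fell. Of these Addback calls that of MAFG was kept in all 12 fits that left out a library. The other Addback calls, and that of MAFK in Vector, ended in some of those fits. VCP and UFD1, which extract NFE2L1 from the membrane of the endoplasmic reticulum, were higher in B4-4 than in Vector under EDTA by 0.68 (SE 0.10, adjusted p = 0.000238) and 0.65 (SE 0.10, adjusted p = 0.00025).

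Of 17 proteasome partners outside the PSM names, 2 rose and 0 fell with EDTA in Vector, 3 rose and 2 fell in B4-4, and 4 rose and 1 fell in Addback. The shares over all genes were 6.36% and 8.98% in Vector, 9.88% and 10.0% in B4-4, and 8.64% and 8.29% in Addback, and they apply to the EDTA counts of the lists that follow as well. The median log2 fold changes of the 17 partners were 0.00, 0.21 and 0.21. POMP, the maturation factor of the core, was 83.2 and 77.2 CPM under NA against 90.0 and 85.4 under EDTA in Vector, 103 and 129 against 134 and 141 in B4-4, and 93.3 and 105 against 117 and 149 in Addback. Under EDTA it was higher in B4-4 than in Vector (0.65, SE 0.13, adjusted p = 0.00208). USP14, a deubiquitinase that binds the 19S base, was higher in the same comparison by 0.79 (SE 0.10, adjusted p = 7.95e-05). ZFAND5, which stimulates the proteasome during muscle wasting, fell with EDTA in Addback (−0.79, SE 0.10, adjusted p = 0.000549). It also fell in B4-4 (−0.37, SE 0.10, adjusted p = 0.0295) and rose in Vector (0.51, SE 0.10, adjusted p = 0.00672). The ZFAND5 calls in B4-4 and Vector ended in some of the 12 fits that left out a library, while that in Addback was kept. Of 6 ubiquitin and ubiquitin-activating genes 1, 2 and 3 rose with EDTA in Vector, B4-4 and Addback, and 1 fell, in B4-4. Of 9 genes of the COP9 signalosome, a complex related to the lid, 1 rose and 1 fell in Vector, 0 changed in B4-4, where 2 had an unadjusted p under 0.05, and 2 rose in Addback.

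Of 18 genes of class I antigen presentation and the interferon response, 3 rose and 1 fell with EDTA in Vector, 2 rose and 2 fell in B4-4, near the 9.88% and 10.0% of all genes, and 0 rose and 6 fell in Addback. IRF1, a factor that drives PSMB9 and TAP1, rose with EDTA in Vector, from 22.8 and 25.5 CPM to 41.0 and 44.8 CPM (0.83, SE 0.14, adjusted p = 0.00215; at most 0.0408 in the 12 fits that left out a library). It fell in B4-4, from 74.3 and 77.9 CPM in NA to 13.2 and 11.4 CPM in EDTA (−2.63, SE 0.15, adjusted p = 2.91e-06). Its Addback levels were 49.9 and 66.4 CPM under NA against 68.5 and 63.7 CPM under EDTA, which overlap. TAP1, a peptide transporter gene that neighbours PSMB9, was 43.2 to 62.8 CPM. Its lone call was the lower level in Addback than in B4-4 under EDTA (−0.45, SE 0.13, adjusted p = 0.0329). That call ended in some of the 12 fits that left out a library. Of 13 cytosolic heat shock genes 1 rose and 1 fell with EDTA in Vector, 4 rose and 0 fell in B4-4, and 7 rose and 3 fell in Addback, while 10 were higher and 0 lower in B4-4 than in Vector under EDTA, against 22.9% and 20.4% of all genes. HSPA1A, the inducible HSP70 gene, was 165 and 180 CPM in Vector EDTA and 394 and 432 CPM in B4-4 EDTA (1.26, SE 0.10, adjusted p = 2.75e-06). The HSPA1 pair may share reads. HSP90AA1 was higher in B4-4 than in Vector under EDTA by 0.93 (SE 0.11, adjusted p = 5.27e-05), and in Addback with EDTA it rose by 0.79 (SE 0.11, adjusted p = 0.000731).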

How the data were processed

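Stranded polyA libraries of 12 samples were sequenced as paired-end reads, per the labels' protocols. The values the authors deposited are raw read counts, whole numbers for each Ensembl gene. The submitters' processing notes name TopHat2 2.1.1, featureCounts 1.5.3 and SAMtools 1.4.1. The role of each listed genome build, the annotation release, the strand setting and the handling of reads with several matches stand in none of the sources used here. Sense and antisense reads at one locus therefore cannot be told apart. Positions, gene types and exon lengths came from GENCODE release 29 (GRCh38). Symbols matched 57895 of 58233 genes.

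The tests used edgeR 4.0.16 in R 4.3.3: filterByExpr over 6 groups (15749 genes), TMM factors, group means over all 12 libraries with robust quasi-likelihood dispersions, and Benjamini-Hochberg adjustment over all genes tested. A gene is called at an adjusted p under 0.05. SE was derived from the log2 fold change and the square root of its F statistic. The procedure was tested on simulated data with known changes between EDTA and NA in each derivative. It recovered 2% to 4% of 1.25-fold changes, 22% of 1.5-fold changes and 54% to 74% of 2-fold changes. Of 90 to 100 calls per derivative, 8 or 9 were false. Members with changes under 1.5-fold would thus mostly be missed at such recovery.

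Members and lists were chosen with earlier results of these data known. Named in each contrast were fixed subunits of interest and up to 4 called members per direction with the smallest p, and from each list NFE2L1, NFE2L2, POMP, TAP1, IRF1, HSPA1A and up to 3 called genes. Alternatives were relative log expression and upper-quartile factors, no filter, DESeq2 1.42.0, a replicate block, the compared groups alone, and leaving out each library.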

Additional observations from a re-analysis of the deposited data

Results flagged for a closer look

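The EDTA effect of a member differed from that in Vector, by edgeR's quasi-likelihood test of the difference itself, in 18 cases, given here as log2 differences. For B4-4 minus Vector these were PSME3 (1.21), PSMC3IP (1.21), PSMD2 (0.60), PSME4 (0.58), PSMC4 (0.52), PSMD1 (0.45), PSMD11 (0.45), PSMG2 (−0.66) and PSME1 (−0.71). For Addback minus Vector they were PSMC3IP (1.14), PSME3 (0.94), PSMG3 (0.71), PSMD1 (0.69), PSMC3 (0.63), PSMD2 (0.54), PSMC4 (0.47), PSMC2 (0.45) and PSMD3 (0.42). Both sets share the Vector libraries. The differences of PSME3 in both sets, of PSME4 and PSME1 in B4-4 and of PSMD1 in Addback were kept in all 12 fits that left out a library. The difference of PSMD2 in B4-4 ran from 0.38 to 0.86 over those fits. That of PSMC3IP in Addback was 0.82 without Addback EDTA 2. The call of PSMD2 in Addback was kept in 2 of the 12 such fits, and those of PSMC2 and PSMC3IP in Addback in 3 each.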

How the results depend on the processing

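No called member named for a comparison changed direction under any of the 18 settings. Of these 60 calls, 16 were kept in all 12 fits that left out a library. Fitted alone, the compared groups gave 6 calls for EDTA in Vector (1 with all groups), 1 for EDTA in B4-4 (9), 0 for B4-4 against Vector in NA (3), 0 for Addback against B4-4 in NA (10), 25 for Addback against Vector in NA (9), 14 under EDTA (22) and 14 for the difference of Addback and Vector (9). Upper-quartile factors gave 2 calls for EDTA in Vector and 5 for the difference of Addback and Vector, and they moved the median of all genes by −0.10 for the difference of B4-4 and Vector. DESeq2 gave 5 calls for B4-4 against Vector in NA. Leaving out a library gave 0 to 3 calls for EDTA in Vector, 1 to 16 in B4-4 and 0 to 25 in Addback. For B4-4 against Vector it gave 0 to 20 in NA and 13 to 25 under EDTA, for Addback against B4-4 0 to 24 and 0 to 10, and for Addback against Vector 0 to 12 and 9 to 29. For the differences of EDTA effects it gave 4 to 16 with B4-4 and 2 to 21 with Addback. The cause was not tested. With the replicate number as a block the counts were 1, 9 and 17 for EDTA in Vector, B4-4 and Addback, 3 and 20 for B4-4 against Vector in NA and under EDTA, 11 and 4 for Addback against B4-4, 9 and 25 for Addback against Vector, and 9 and 9 for the differences. The labels do not say that a number marks a shared culture or day. Over 15 pairs of groups the correlation of replicate deviations ran from −0.17 to 0.32 and was over 0.1 in 7, so the numbers were not taken as pairs. In each of the 6 groups more proteasome genes were higher in replicate 2 than in replicate 1 (25 to 40 of 46). At 2 libraries per group, members that missed the threshold are not shown to be unchanged, and PSMA2, PSMB9 and PSMB10 rest on 119 counts per library or fewer.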
